A study of Homo sapiens with 10 samples.

Results

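The genes described here are 8 genes of cholesterol and fatty acid synthesis, namely INSIG1, HMGCS1, IDI1, FDFT1, SQLE, ACAT2, SCD and FASN. All probe sets that carry 1 of these symbols in the platform annotation were taken. They numbered 17 of the 22283 probe sets on the array and stood for 7 of the 8 genes, since no probe set was named FDFT1 in the annotation used. FDFT1, squalene synthase, was therefore not analysed here. Of the 17 probe sets, 7 were bright enough to be tested, for 4 genes: INSIG1 with 3 probe sets, SCD with 2, SQLE with 1 and ACAT2 with 1.

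RNA of MOLT-4 cells, an established line of human T-cell acute lymphoblastic leukaemia, was hybridised to Affymetrix human arrays, which read a transcript with sets of short probes. Cells had received MABL, an antibody against CD47, for 0 h, 0.5 h, 1 h, 3 h or 6 h, with 2 arrays at each of these 5 times and 10 arrays in all. Every sample, also at 0 h, is labelled with MABL at 10 ug/mL and with GAM at 50 ug/mL, an agent whose abbreviation the labels leave unexplained. Untreated cells kept for equal times were not analysed here, so antibody, GAM, culture time and handling cannot be told apart. The labels do not state that the 2 arrays of a time are separate cultures. The p-values then cover only the spread between these arrays, which may be technical.

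Cholesterol and fatty acids are built from acetyl-CoA, and in animal cells the genes of both routes are switched on by the SREBP transcription factors. When sterols are plentiful, the protein INSIG1 in the membrane of the endoplasmic reticulum binds the escort SCAP and holds SREBP back. When sterols are scarce, SCAP carries SREBP to the Golgi, where it is cut and released to the nucleus, and INSIG1 is itself a target gene of SREBP. Dividing T cells draw on this pathway for new membrane.

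Levels are given as log2, the square root of the deposited score, so that a difference of 1 is a doubling; that the square root is a log2 value is a reading of the data, and all sizes rest on it. A probe set was tested where at least 2 of the 10 arrays reached log2 5, and called where limma's adjusted p, over all 4276 probe sets tested, was under 0.05. The number of arrays limits the precision. In RNA of whole cultures, fewer cells of a type and less RNA per cell cannot be told apart. The T-cell gene CD3D stood at log2 12.24 to 12.54 and LCK at 10.20 to 10.58, and 14 of 18 T-lineage markers with a probe set passed the filter. The 4 below it were CD7, CD2, CD4 and RAG1. Of 19 markers of other cell types only COL1A1 passed, at 5.06 to 5.49, and the summed log2 level of those 19 ran from 54.3 to 56.4 over all arrays. The summed level of the T-lineage markers ranged over 126.6 to 126.7 (0 h), 123.1 to 124.5 (0.5 h), 120.3 to 122.2 (1 h), 119.2 to 121.9 (3 h) and 123.2 to 123.8 (6 h). Of the 14 tested T-lineage markers, 0 were called at 0.5 h (2 at an unadjusted p under 0.05), 3 lower at 1 h, 3 lower at 3 h, and 1 higher and 2 lower at 6 h. With equal array medians these were 0, 3 higher and 2 lower, 1 higher and 2 lower, and 2 higher and 1 lower. In that setting COL1A1 was called higher at 1 h and 3 h (0.45 and 0.53). The shares of all tested probe sets called in both settings stand beside the member counts below. Probe sets for 18S rRNA had mean levels of 9.03 (0 h), 10.44 (0.5 h), 10.68 (1 h), 11.20 (3 h) and 11.67 (6 h), and the spike-in controls 10.76 at 3 h, their highest, against 10.00 at 0 h. The median of all tested probe sets lay below its 0 h value at each later time, so that giving the arrays equal medians adds 0.13 (0.5 h), 0.29 (1 h), 0.31 (3 h) and 0.25 (6 h) to every change. The part of these shifts in the results was not tested. Calls of the members and of the pathway lists that equal array medians add or remove are given beside the results.

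INSIG1 was lowest at 3 h and highest at 6 h in all but its dimmest probe set, which was highest at 6 h but not lowest at 3 h. Its brightest probe set, 201627_s_at, read 7.62 and 7.58 on the 0 h arrays, 7.82 and 7.73 on those of 0.5 h, 7.80 and 7.60 on those of 1 h, 7.11 and 7.14 on those of 3 h, and 7.99 and 8.16 on those of 6 h. Both 3 h arrays lay below and both 6 h arrays above the arrays of every other time. Against 0 h, the 3 h level fell by 0.47 (SE 0.110, adjusted p = 0.0151) and the 6 h level was 0.47 higher (adjusted p = 0.0160), while its changes of 0.18 at 0.5 h and 0.10 at 1 h were not called. Between 3 h and 6 h it rose by 0.95, a fold of 1.93 (adjusted p = 0.00327). With equal array medians the change at 3 h against 0 h was -0.16 and no longer called (adjusted p = 0.297), the rise at 6 h was 0.72 (adjusted p = 0.00203), and a change of 0.39 at 1 h was called (adjusted p = 0.0260). The drop at 3 h lost its call without the first 0 h array (adjusted p = 0.0834) and without the second 3 h array (0.0633). The rise at 6 h against 0 h lost its call without either 0 h array (adjusted p = 0.0723 without replicate 1 and 0.0647 without replicate 2) and without the second 6 h array (0.0743).

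**Figure D1:**
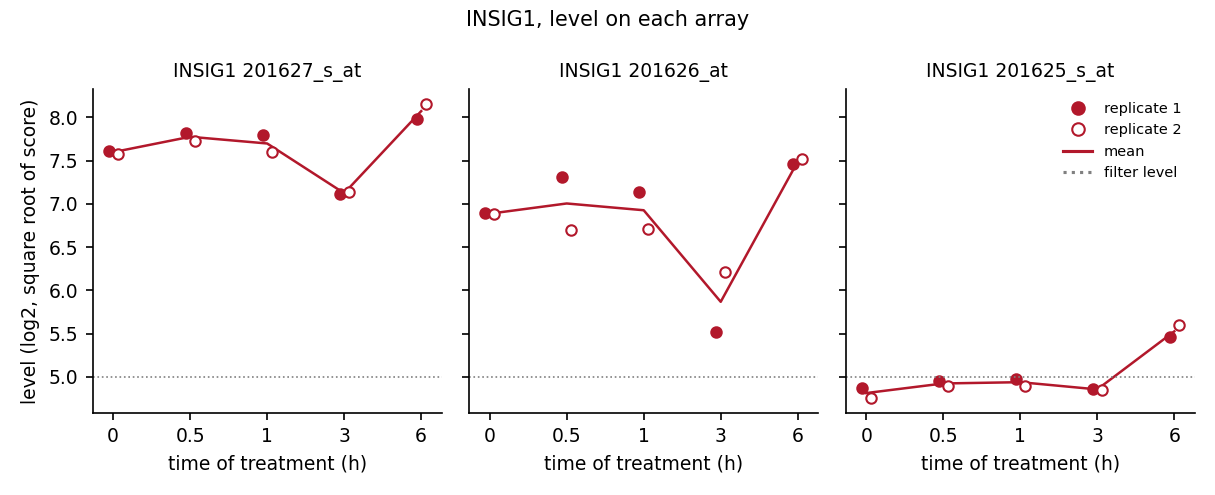
Levels of the 3 INSIG1 probe sets (log2, the square root of the deposited score) against time of MABL in hours, drawn at even steps; points are single arrays, 2 at each time, lines join the means and the dotted line is the filter level. In 201627_s_at both 3 h arrays, at 7.11 and 7.14, are the lowest of the 10 and both 6 h arrays, at 7.99 and 8.16, the highest.

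The second INSIG1 probe set, 201626_at, read 6.89 and 6.89 on the 0 h arrays, 7.31 and 6.70 on those of 0.5 h, 7.14 and 6.72 on those of 1 h, 5.52 and 6.21 on those of 3 h, and 7.46 and 7.52 on those of 6 h. Its order of times was that of the brightest probe set, with a wider spread between the replicates at 0.5 h, 1 h and 3 h. Its 3 h level fell by 1.02 against 0 h (SE 0.268, adjusted p = 0.0243), and 6 h was 1.62 above 3 h, 3.08-fold (adjusted p = 0.0115). The change of 0.60 at 6 h against 0 h was not called (adjusted p = 0.136), but was 0.85 and called with equal array medians (adjusted p = 0.0263). The difference between 3 h and 1 h was also called in that setting, at -1.03 (adjusted p = 0.0261). The drop at 3 h against 0 h lost its call without the first 3 h array, at -0.67 (adjusted p = 0.105), and without either 0 h array (adjusted p = 0.112 and 0.0840). The rise between 3 h and 6 h was not called without the second 6 h array (adjusted p = 0.0664).

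The dimmest INSIG1 probe set, 201625_s_at, stood at 5.46 and 5.60 at 6 h, against 4.76 to 4.98 on the 8 arrays up to 3 h, all of which lay under the filter level. It entered the tests only through its 6 h arrays, so that a difference at 6 h was bound to show: 0.71 against 0 h (adjusted p = 0.00276) and 0.67 against 3 h (adjusted p = 0.00772). At 3 h it showed no drop and differed from 0 h by 0.04 (adjusted p = 0.794), with both times under the filter level. With equal array medians it was called higher at 1 h (0.41, adjusted p = 0.0185) and at 3 h (0.35, adjusted p = 0.0406) as well, still from arrays under the filter level. The 3 h change against 0 h thus differed between the INSIG1 probe sets. The difference was 0.52 for 201625_s_at minus 201627_s_at (adjusted p = 0.0126) and -0.54 for 201626_at minus 201627_s_at (adjusted p = 0.0479).

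Of SCAP, SREBF1, SREBF2 and INSIG2, SCAP alone was bright enough to test. SCAP read 5.43 and 5.49 on the 0 h arrays, 5.52 and 5.80 on those of 0.5 h, 5.68 and 5.47 on those of 1 h, 5.75 and 5.25 on those of 3 h, and 5.60 and 5.64 on those of 6 h, with changes against 0 h of 0.20, 0.12, 0.04 and 0.16 at the 4 later times, none of them called here or with equal array medians. SREBF2, which encodes the SREBP of cholesterol synthesis, stayed between 4.61 and 4.96 in its brighter probe set, just under the filter, and between 2.13 and 2.23 in the other. SREBF1, which encodes the SREBP of fatty acid synthesis, lay between 1.94 and 1.96, and INSIG2, the relative of INSIG1, between 3.23 and 3.49.

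The stretches of 250 bases before the start sites of INSIG1 and SCD are shown because INSIG1 and SCD were the genes, among those with a promoter in the table used, that had a probe set called lower at 3 h. They come from RefSeq (GRCh38.p14): INSIG1 at chr7:155297628-155297877 on the plus strand and SCD at chr10:100346983-100347232 on the plus strand. Capitals mark CCAAT on either strand (ATTGG on the reverse) and the E-box CACGTG, which reads alike on both strands.
INSIG1: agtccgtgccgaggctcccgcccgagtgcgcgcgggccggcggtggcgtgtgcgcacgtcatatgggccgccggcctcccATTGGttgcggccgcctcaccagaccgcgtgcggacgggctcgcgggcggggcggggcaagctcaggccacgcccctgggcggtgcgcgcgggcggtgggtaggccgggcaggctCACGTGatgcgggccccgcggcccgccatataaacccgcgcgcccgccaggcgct
SCD: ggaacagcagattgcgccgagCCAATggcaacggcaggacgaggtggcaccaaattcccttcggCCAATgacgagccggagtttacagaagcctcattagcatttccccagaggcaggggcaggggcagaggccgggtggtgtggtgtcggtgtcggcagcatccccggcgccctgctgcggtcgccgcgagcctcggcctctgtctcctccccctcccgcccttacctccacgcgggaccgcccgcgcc
The INSIG1 window held 1 E-box, 55 bases before the start, and 1 CCAAT box, 170 bases before it. The SCD window held CCAAT boxes 229 and 186 bases before the start and no E-box. The table gave 7 windows for 4 of the 8 genes (INSIG1, SCD, HMGCS1 with 2 starts and IDI1 with 3). CCAAT was in 5 of the 7, against 32% of all 35116 promoter windows of this length, the E-box in 1 of 7, against 6.34%, and the GC box GGGCGG in 7 of 7, against 42.6%. The sterol element TCACNCCAC was searched on both strands as well and was in 0 of the 7, against 0.883% of all windows. These matches describe letters and not binding, and no match says only that the letters are not in this window.

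Among the enzymes of sterol synthesis, ACAT2 and SQLE were tested, and both were lower after 0 h. ACAT2 makes acetoacetyl-CoA, the first intermediate of the sterol route. It read 8.08 and 8.26 on the 0 h arrays, 8.06 and 7.94 on those of 0.5 h, 7.77 and 7.65 on those of 1 h, 7.85 and 7.51 on those of 3 h, and 7.55 and 7.61 on those of 6 h. All arrays of every later time lay below both 0 h arrays. The 1 h level of ACAT2 fell by 0.46 (SE 0.136, adjusted p = 0.0381), that of 3 h by 0.49 (0.0293) and that of 6 h by 0.59 (0.0160), to 66.4% of the 0 h level at 6 h. Under equal array medians these changes were -0.17, -0.18 and -0.34, and none was called (adjusted p = 0.267, 0.261 and 0.0683). The 6 h call was also lost without either 0 h array (adjusted p = 0.0504 and 0.0791) and without the first 6 h array (adjusted p = 0.0817). The 3 h call was lost without either 0 h array (adjusted p = 0.0698 and 0.134) and without the second 3 h array (-0.32, adjusted p = 0.161). The 1 h call was lost without any single array of 0 h, 0.5 h, 1 h or 6 h, with adjusted p up to 0.170.

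SQLE, squalene epoxidase, inserts the oxygen that precedes ring closure and is a rate-limiting step of the route. Its tested probe set, 209218_at, read 5.83 and 5.63 on the 0 h arrays, 5.29 and 4.96 on those of 0.5 h, 4.46 and 4.89 on those of 1 h, 4.85 and 4.48 on those of 3 h, and 4.98 and 5.29 on those of 6 h. Every later array lay below both 0 h arrays, and the 1 h and 3 h arrays lay under the filter level of log2 5, which the probe set passed through 0 h, the first 0.5 h array and the second 6 h array. The 1 h level of SQLE fell by 1.06 (SE 0.206, adjusted p = 0.00632) and its 3 h level by 1.07 (0.00768), to 48.1% and 47.7% of the 0 h level. The differences of -0.61 at 0.5 h and -0.60 at 6 h were not called (adjusted p = 0.0845 and 0.0652). With all values under log2 5 raised to 5 the changes at 1 h and 3 h were both -0.73, and with equal array medians they were -0.77 and -0.76, called in both settings. Without the first 0 h array both calls were lost (adjusted p = 0.0537 at 1 h and 0.0624 at 3 h), and the 3 h call also without the second 3 h array (adjusted p = 0.0535). The other two SQLE probe sets, 213577_at and 213562_s_at, stayed within 4.00 to 4.32 and 2.71 to 2.81.

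**Figure D2:**
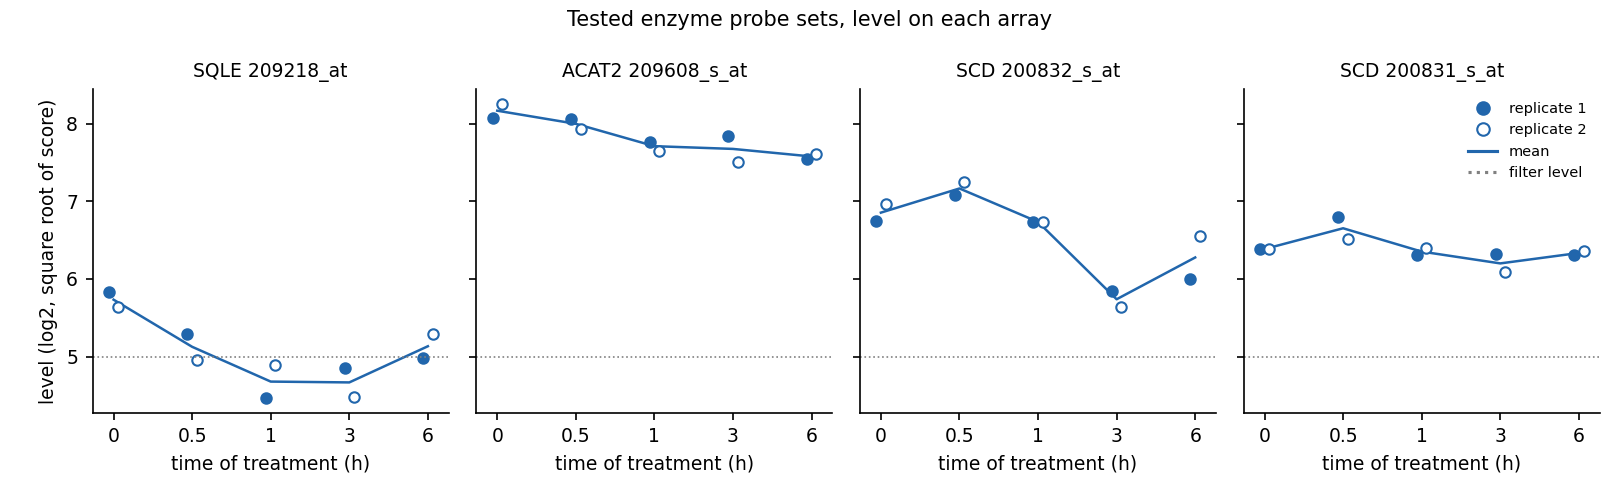
Levels of the tested enzyme probe sets (log2, the square root of the deposited score) against time of MABL in hours; points are single arrays, 2 at each time, and lines join the means. ACAT2 and SQLE stand highest on their 0 h arrays, at 8.08 and 8.26 and at 5.83 and 5.63, and SCD 200832_s_at drops to 5.84 and 5.64 at 3 h while SCD 200831_s_at stays between 6.08 and 6.79.

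HMGCS1 and IDI1, the sterol enzymes that make HMG-CoA and isomerise the isoprene unit, stayed under the filter on all arrays. HMGCS1 in 221750_at ran from 3.2 to 3.44 on all 8 later arrays, against 4.07 and 3.70 at 0 h, with no overlap. Its differences from 0 h were -0.58, -0.50, -0.48 and -0.56 over the later times in order, and in a fit over all probe sets none was called (adjusted p from 0.0952 to 0.132). IDI1 in 208881_x_at stood at 3.95 and 4.29 at 6 h, above all 8 earlier arrays, against 3.73 and 3.54 at 0 h (difference 0.49, adjusted p = 0.243). HMGCS1 in 205822_s_at stayed between 2.66 and 3.18, and IDI1 in 204615_x_at between 2.23 and 2.46.

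SCD, stearoyl-CoA desaturase, puts the first double bond into saturated fatty acids. Its brighter probe set, 200832_s_at, read 6.74 and 6.97 on the 0 h arrays, 7.09 and 7.25 on those of 0.5 h, 6.73 and 6.74 on those of 1 h, 5.84 and 5.64 on those of 3 h, and 6.00 and 6.55 on those of 6 h. The 3 h arrays were the lowest and the 0.5 h arrays the highest. Its 3 h level fell by 1.12 against 0 h (SE 0.183, adjusted p = 0.00445), to 46.1%, and by 1.00 against 1 h (0.0328). It was the only one of the 7 tested probe sets whose 2 arrays at a later time both passed the submitters' fold rule of under 0.5 times the 0 h mean. Of all 4276 tested probe sets, 256 (0.5 h), 487 (1 h), 286 (3 h) and 175 (6 h) met that rule. With equal array medians the change at 3 h was -0.81 and still called. At 6 h the difference from 0 h was -0.58 (adjusted p = 0.0508) and that from 3 h was 0.54 (adjusted p = 0.125), neither called; without the second 6 h array the first of these was -0.85 (adjusted p = 0.0122) and without the first 6 h array the second was 0.81 (adjusted p = 0.0345).

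The other tested SCD probe set, 200831_s_at, read 6.38 and 6.39 on the 0 h arrays, 6.79 and 6.51 on those of 0.5 h, 6.30 and 6.40 on those of 1 h, 6.32 and 6.08 on those of 3 h, and 6.31 and 6.36 on those of 6 h. No change against 0 h was called, and the largest were 0.27 at 0.5 h (adjusted p = 0.209) and -0.19 at 3 h (adjusted p = 0.325). The change at 0.5 h was called with equal array medians (0.40, adjusted p = 0.0498) and with quantile normalization (0.39, adjusted p = 0.0410). The SCD probe sets disagreed at 3 h, by -1.12 against -0.19. The remaining SCD probe sets lay between 1.96 and 2.24.

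FASN, fatty acid synthase, was under the filter in both probe sets. In 212218_s_at it stood between 2.24 and 2.88 on the 8 later arrays, against 3.56 and 3.73 at 0 h, with no overlap. The differences from 0 h were -1.07, -1.03, -1.07 and -1.09 over the later times in order, and in a fit over all probe sets none was called (adjusted p = 0.0814, 0.0582, 0.0587 and 0.0568). Both arrays of 0.5 h and both of 1 h met the fold rule given above for SCD, at levels under the filter. The other probe set, 217006_x_at, stayed between 3.26 and 3.42. Of the 10 dim probe sets of these genes, 6 varied by less than 0.35 over all arrays, and the 4 that varied by 0.5 or more were those of HMGCS1, the brighter one of IDI1 and 212218_s_at of FASN.

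**Figure D3:**
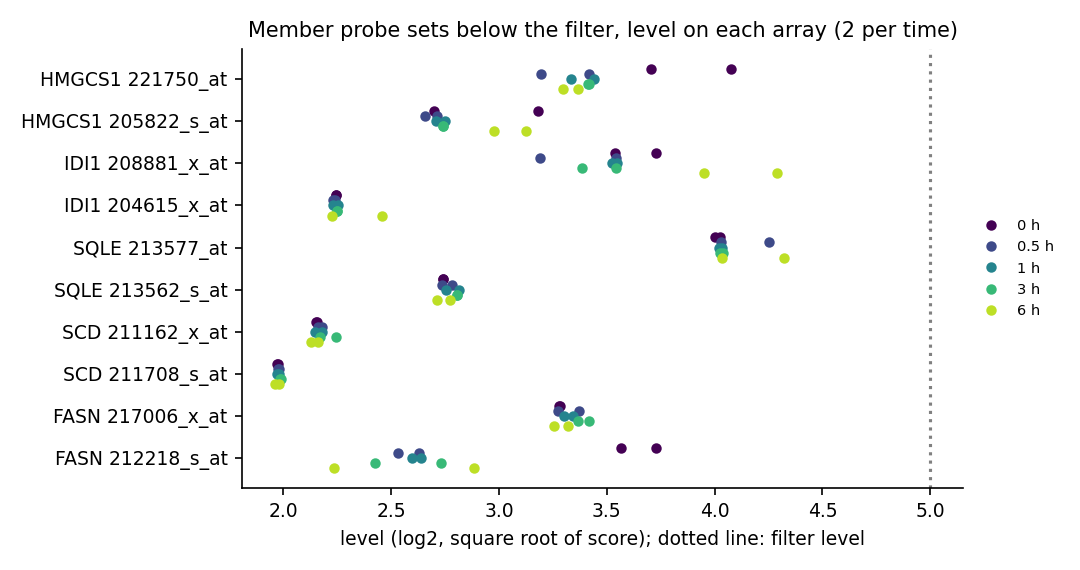
Levels of the 10 probe sets of HMGCS1, IDI1, SQLE, SCD and FASN that stayed under the filter, 1 row each, on a horizontal axis in log2 (the square root of the deposited score); points are single arrays, coloured by time of MABL, and the dotted line is the filter level. FASN 212218_s_at and HMGCS1 221750_at are highest on the 0 h arrays, at 3.56 and 3.73 and at 4.07 and 3.70, and IDI1 208881_x_at at 6 h, at 3.95 and 4.29.

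Among the 7 tested probe sets, the called changes against 0 h were 8 lower, 5 of them at 3 h, and 2 higher, but this balance turned with the scaling: equal array medians gave 7 higher and 4 lower. At 0.5 h 0 were called (limma; 1 at an unadjusted p under 0.05), where 1.92% of all tested probe sets were called higher and 15.1% lower. At 1 h 0 were called higher and 2 lower, against 4.14% and 24.2% of all tested, so the share lower was close to that of the array. At 3 h 0 were higher and 5 lower, against 2.53% and 26.4%, and at 6 h 2 were higher, both of INSIG1, and 1 lower, against 4.07% and 21.6%. Of these INSIG1 probe sets, 201625_s_at had passed the filter through 6 h alone. The lower calls at 3 h were 2 probe sets of INSIG1 and 1 each of SQLE, ACAT2 and SCD. The median change of the 7 was 0.12, -0.03, -0.49 and -0.05 over the later times in order, against 0.01, -0.03, -0.15 and -0.14 for all tested probe sets.

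With equal array medians, 1 of the 7 was called higher at 0.5 h (SCD 200831_s_at) and 0 lower, against 6.9% and 15.3% of all tested probe sets. At 1 h 2 were higher, both of INSIG1, and 1 lower, against 32.5% and 19.5%, and at 3 h 1 was higher (INSIG1 201625_s_at) and 3 lower, against 23.1% and 17.8%. At 6 h 3 were higher, all of INSIG1, and 0 lower, against 14.3% and 14.1%. INSIG1 201625_s_at, which passed the filter through 6 h alone, is among the higher calls at 1 h, 3 h and 6 h. It thus also enters the 7 higher calls given above for this setting. Without it 1 of 6 was higher at 1 h, 0 of 6 at 3 h and 2 of 6 at 6 h. The lower calls at 3 h in this setting were INSIG1 201626_at (-0.71, adjusted p = 0.0417), SQLE and SCD 200832_s_at.

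Between successive late times, 2 of the 7 were lower at 3 h than at 1 h (INSIG1 201627_s_at and SCD 200832_s_at), against 1.82% of all tested, and 3 were higher at 6 h than at 3 h, all of INSIG1, against 5%. An F test over the 5 times called 6 of the 7, all but SCD 200831_s_at, against 39.6% of all tested. Without INSIG1 201625_s_at, which passed the filter through 6 h alone, 5 of 6 were called in the F test, 2 of 6 higher at 6 h than at 3 h, and 1 higher at 6 h than at 0 h. Both calls at 3 h against 1 h were lost without any single array of 0 h to 3 h, with adjusted p up to 0.160. With the 18S level as a covariate 0 of the 7 were called against 0 h at any time, and with the spike-in level 1 was, at 1 h. Calls were also few among all 4276 tested probe sets. The 18S covariate left 3 higher and 84 lower at 1 h, 0 at 3 h, and 6 higher and 0 lower at 6 h. The spike-in covariate left 53 higher and 736 lower at 1 h, 0 at 3 h, and 10 higher and 11 lower at 6 h. Under the 18S covariate the SE was wider, and several of the changes stayed about as large: -0.47 at 3 h (SE 0.220) and 0.48 at 6 h (SE 0.255) for INSIG1 201627_s_at, -1.39 at 3 h (SE 0.493) for 201626_at and -0.996 at 3 h (SE 0.354) for SCD 200832_s_at. SQLE instead shrank to -0.49 at 1 h (SE 0.195) and -0.32 at 3 h (SE 0.232). Both levels moved with time, as given above, and their part in the counts was not tested. These shares are set side by side as a description, since probe sets of 1 gene read the same RNA.

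**Figure D4:**
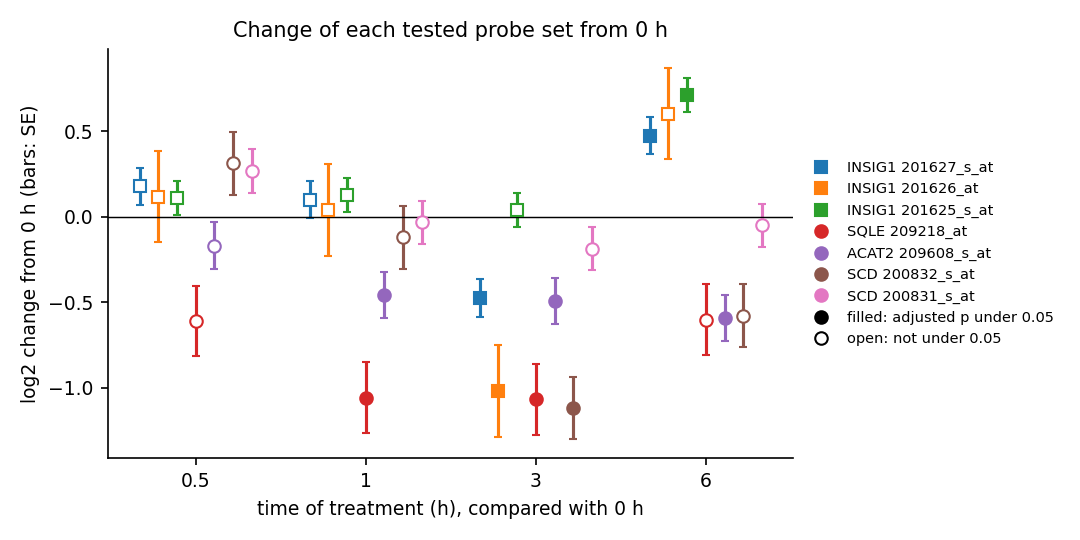
Changes against 0 h of the 7 tested probe sets (log2) at 0.5 h, 1 h, 3 h and 6 h, with SE bars from the fit; filled points were called. At 6 h the 3 INSIG1 probe sets lie above 0, by 0.47 (201627_s_at), 0.60 (201626_at, not called) and 0.71 (201625_s_at). The last passed the filter through 6 h alone. The enzymes lie below 0 there, with only ACAT2 called and SCD 200831_s_at at -0.05. With equal array medians the points move up by 0.13 to 0.31. SCD 200831_s_at then lies at 0.20 at 6 h, and ACAT2 is not called.

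To set the sterol sensor against the enzymes, the level of INSIG1 201627_s_at was taken from that of every tested probe set on the same array and the difference was fitted as before. A shift of a whole array cancels in this difference, so equal array medians leave it as it is. At 6 h all 4 enzyme probe sets had moved down relative to INSIG1. The changes were -1.07 for SQLE (SE 0.206, adjusted p = 0.000415), -1.06 for ACAT2 (SE 0.166, adjusted p = 7.77e-05), -1.05 for SCD 200832_s_at (SE 0.182, adjusted p = 0.000180) and -0.52 for SCD 200831_s_at (adjusted p = 0.0116). INSIG1 itself had risen at 6 h, and 76% of all tested probe sets were called as differing from it there, so the 4 of 4 are read against that share.

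The gap differed between the enzymes at the earlier times. At 3 h, when both were low, the change of ACAT2 was close to that of INSIG1 201627_s_at (difference -0.02, SE 0.166, adjusted p = 0.932). Relative to that probe set SQLE had moved by -0.79 at 0.5 h (adjusted p = 0.00931), -1.16 at 1 h (adjusted p = 0.000373) and -0.59 at 3 h (adjusted p = 0.0272). The 3 h comparison depended on the INSIG1 probe set taken. Against 0 h, INSIG1 201626_at changed by -1.02 at 3 h, beside -1.07 for SQLE and -0.49 for ACAT2. The SCD probe sets changed by -1.12 (200832_s_at) and -0.19 (200831_s_at). Differences from 201626_at were not tested. The SCD probe sets did not differ from INSIG1 by a call at 0.5 h or 1 h, with differences of 0.13 and -0.22 for 200832_s_at and of 0.09 and -0.13 for 200831_s_at.

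Called differences from INSIG1 numbered 1 of 4 at 0.5 h (SQLE), against 26% of all tested probe sets, 2 of 4 at 1 h (SQLE and ACAT2 at -0.56, adjusted p = 0.0168), against 30.6%, and 2 of 4 at 3 h (SQLE and SCD 200832_s_at at -0.64, adjusted p = 0.0123), against 52.5%. Between 3 h and 6 h, the step in which INSIG1 rose, all 4 enzyme probe sets were called as differing from it, by -0.48 for SQLE, -1.05 for ACAT2, -0.41 for SCD 200832_s_at and -0.81 for SCD 200831_s_at, against 90.1% of all tested. The 3 h difference of SQLE was lost with values floored at log2 5 (-0.26, adjusted p = 0.156), without either 0 h array (adjusted p = 0.137 and 0.0557) and without the second 3 h array (adjusted p = 0.170). Leaving out single arrays also ended the calls of SQLE at 0.5 h (adjusted p = 0.0768 without the first 0 h array, 0.0950 without the second 0.5 h array), of ACAT2 at 1 h (adjusted p up to 0.151), of SCD 200832_s_at at 3 h (0.0845 without the second 0 h array, 0.0571 without the second 3 h array) and of SCD 200831_s_at at 6 h (0.0591 without the second 0 h array, 0.0681 without the second 6 h array). The 6 h calls of SQLE, ACAT2 and SCD 200832_s_at held without any single array. With the 18S level as a covariate none of the differences against 0 h was called, at any of the 4 times. The 6 h differences of ACAT2 (-1.01, SE 0.382) and SCD 200832_s_at (-0.91, SE 0.403) stayed about as large with a wider SE, while that of SQLE shrank to -0.18 (SE 0.380), and to -0.59 (SE 0.341) with the spike-in covariate, and that of SCD 200831_s_at to -0.23 (SE 0.376). The 18S level moved with time, and its part in the result was not tested.

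**Figure D5:**
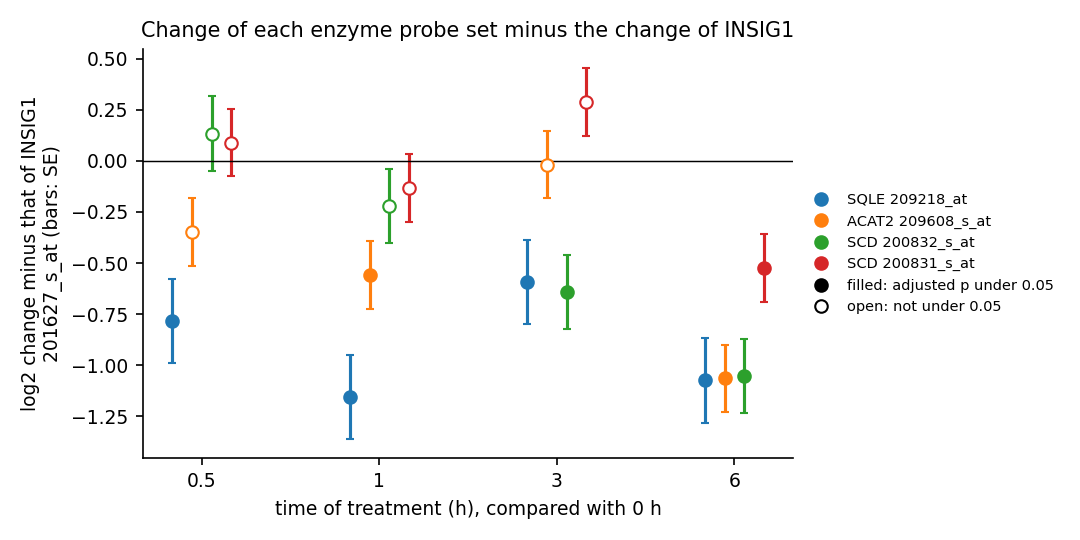
Change against 0 h of each enzyme probe set minus that of INSIG1 201627_s_at (log2) at 0.5 h, 1 h, 3 h and 6 h, with SE bars from the fit; filled points were called. At 6 h all 4 lie below 0, SQLE, ACAT2 and SCD 200832_s_at near -1.06 and SCD 200831_s_at at -0.52.

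Genes around the pathway were taken as 5 lists, each gene read by its brightest tested probe set unless another is named. Of all tested probe sets, 1.92%, 4.14%, 2.53% and 4.07% were called higher at the 4 later times, and 15.1%, 24.2%, 26.4% and 21.6% lower. With equal array medians these shares were 6.9%, 32.5%, 23.1% and 14.3% higher, and 15.3%, 19.5%, 17.8% and 14.1% lower. The counts of the lists are set beside these shares as a description. Among other enzymes of sterol synthesis, the nuclear membrane protein LBR, which is also a sterol C14 reductase, and ACAT1, the mitochondrial acetoacetyl-CoA enzyme, were lower. LBR had mean levels of 9.72 (0 h), 8.55 (0.5 h), 8.16 (1 h), 8.27 (3 h) and 9.0 (6 h), and its changes of -1.17, -1.55, -1.45 and -0.72 were called at all 4 times (adjusted p = 0.00750, 0.00113, 0.00262 and 0.0277). ACAT1 had mean levels of 6.75 (0 h), 5.77 (0.5 h), 5.49 (1 h), 5.72 (3 h) and 6.29 (6 h), with changes of -0.98, -1.26 and -1.03 called up to 3 h (adjusted p = 0.00828, 0.00141 and 0.00426). Both were lowest at 1 h and closer to 0 h again at 6 h. The calls at 1 h and 3 h held with equal array medians and without any single array, and those at 0.5 h were lost without the first 0 h array (adjusted p = 0.0656 for LBR and 0.0718 for ACAT1) or the second 0.5 h array (0.0638 and 0.0649). The 6 h call of LBR was lost without either 0 h array (adjusted p = 0.139 and 0.0749) and without the first 6 h array (0.159).

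Of the 19 genes of this list, 15 had a probe set and 6 were tested. LBR and ACAT1 were the 2 called lower of the 6 at 0.5 h, 1 h and 3 h, and LBR the 1 at 6 h, and 0 were higher at any time in limma's test. FDPS, which makes farnesyl diphosphate, had mean levels of 8.42 (0 h), 8.47 (0.5 h), 8.60 (1 h), 8.24 (3 h) and 8.17 (6 h), with no change called. PMVK, EBP and HSD17B7, which act before and after it on the route, had no change called either and lay within 0.44 of 0 h in their brightest probe sets. EBP in 202735_at was 0.52 higher at 1 h, not called (adjusted p = 0.0566). The median change of the 6 was 0.02, -0.15, -0.16 and -0.19 at the 4 times, against 0.01, -0.03, -0.15 and -0.14 for all tested probe sets. Equal array medians gave 3 higher at 1 h (PMVK, FDPS and EBP, by 0.43 to 0.47) and 1 at 3 h (EBP), and medians of 0.15, 0.14, 0.15 and 0.05.

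Of 12 genes of the SREBP system and its regulators, 10 had a probe set and 5 were tested. UBE2G2, a ubiquitin-conjugating enzyme of the endoplasmic reticulum's degradation route, averaged 6.36 at 6 h and 7.54 at 0 h in its brighter probe set, a change of -1.18 (adjusted p = 0.0158), lost without the first 0 h array (adjusted p = 0.1002) or the first 6 h array (0.0892). Its other probe set changed by -0.63 (adjusted p = 0.129), and with equal array medians it was called higher at 1 h (0.58, adjusted p = 0.0446). RNF139, a ubiquitin ligase of that membrane, averaged 4.00 at 3 h and 5.20 at 0 h, a change of -1.20 at the edge of the threshold (adjusted p = 0.04998), and the change was -0.20 with values floored at log2 5 (adjusted p = 0.458). MBTPS1, which makes the first cut in SREBP, changed by -0.40 at most, and AUP1 by 0.15 at most, and neither was called. The list thus had 0 called at 0.5 h and 1 h (limma; 0 also at an unadjusted p under 0.05) and 1 lower each at 3 h and 6 h. Equal array medians added 1 higher call each at 1 h and 3 h, both of AUP1 (0.37 and 0.46, adjusted p = 0.0495 and 0.0271).

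In fatty acid synthesis and elongation, ACLY, which makes cytosolic acetyl-CoA from citrate, and ELOVL5, which elongates polyunsaturated fatty acids, were lower in their brightest probe sets. ACLY had mean levels of 9.55 (0 h), 9.47 (0.5 h), 9.10 (1 h), 8.68 (3 h) and 8.32 (6 h), the lowest at the last time. Its changes of -0.87 at 3 h and -1.23 at 6 h were called (adjusted p = 0.0104 and 0.00356), as were those of its probe set 210337_s_at, -0.71 and -0.84 (adjusted p = 0.00725 and 0.00419), while 201127_s_at, at -0.38 and -0.46, was not (adjusted p = 0.126 and 0.0800). The 3 h call of the brightest probe set was lost without either 0 h array (adjusted p = 0.0581 and 0.0501), and that of 210337_s_at without the first of them (0.0581). Both 6 h calls held without any single array.

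ELOVL5 in 208788_at had mean levels of 10.35 (0 h), 9.95 (0.5 h), 9.43 (1 h), 9.24 (3 h) and 9.63 (6 h), with changes of -0.93, -1.11 and -0.72 called from 1 h on (adjusted p = 0.00229, 0.00247 and 0.00931), the last of which was lost without the first 0 h array (0.0653) or the first 6 h array (0.0576). Its other tested probe set, 215082_at, went the opposite way, by 0.34 at 1 h, 0.44 at 3 h and 0.25 at 6 h, not called here but called with equal array medians (0.62, 0.76 and 0.50, adjusted p = 0.0120, 0.00731 and 0.0441). FADS3, a member of the fatty acid desaturase family, was 0.43 higher at 3 h (adjusted p = 0.0242), a call lost without any single array of 0 h or 3 h (adjusted p up to 0.108). Of 23 genes listed, 17 had a probe set and 5 were tested, of which 0 were called at 0.5 h (1 at an unadjusted p under 0.05), 1 lower at 1 h, 1 higher and 2 lower at 3 h, and 2 lower at 6 h. The other tested genes, TECR and MID1IP1, changed by at most 0.30 and 0.36 and were not called. Equal array medians gave 2 higher at 1 h (FADS3 and TECR) and 3 each at 3 h and 6 h (FADS3, TECR and MID1IP1), by 0.41 to 0.74.

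Of 17 genes of cholesterol uptake, transport and efflux, 14 had a probe set and 3 were tested. ABCG1, which exports cholesterol, averaged 7.33 at 6 h and 6.58 at 0 h, a rise of 0.75 (adjusted p = 0.0147) that was lost without the second 0 h array (adjusted p = 0.0767) or the second 6 h array (0.0732). NPC2, a carrier of cholesterol in lysosomes, and the lipoprotein gene APOE changed by at most 0.28 and 0.12 and were not called, so the list had 0 calls at 0.5 h, 1 h and 3 h (0, 0 and 2 at an unadjusted p under 0.05). ABCG1 was called higher at 3 h too with equal array medians (0.79, adjusted p = 0.00265), and APOE at 1 h and 3 h (0.37 and 0.43, adjusted p = 0.0440 and 0.0316), which made 1 and 2 higher of the 3. Fatty acid oxidation had 10 tested genes of 16 with a probe set and 17 listed. CPT1A, which commits fatty acids to oxidation, averaged 6.63 at 6 h and 7.80 at 0 h, a change of -1.17 that held its call without any single array (adjusted p = 0.000751). ETFA, an electron carrier of oxidation, changed by -0.61 at 0.5 h and -1.11 at 1 h (adjusted p = 0.0346 and 0.00178), and HADHB, a subunit of the enzyme complex of oxidation, by -0.49 at 1 h (adjusted p = 0.0284). The calls of ETFA at 0.5 h and of HADHB were lost without single arrays, with adjusted p up to 0.175 and 0.170, and that of HADHB also with equal array medians (-0.20, adjusted p = 0.270). These made 1 lower call at 0.5 h, 2 at 1 h, 0 at 3 h (0 also at an unadjusted p under 0.05) and 1 at 6 h, with 0 higher. Equal array medians gave 1, 4, 5 and 3 higher of the 10 at the 4 times, against 6.9%, 32.5%, 23.1% and 14.3% of all tested. Among them was ETFA at 6 h (0.43, adjusted p = 0.0359).

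The genes whose levels over the 10 arrays ran most like INSIG1 201627_s_at, among 2815 genes ranked by Pearson's r, were RGS10 (r = 0.921), DDX41 (0.920), ENO1 (0.885), AGPAT1 (0.884) and LASP1 (0.882). These genes were picked by r over the same 10 arrays, so a low at 3 h and a rise to 6 h were selected for. The adjusted p-values given below for their changes are therefore a description and no test. The points share the 5 times and the array medians, and the r values are a description too. With equal array medians they were 0.990 for RGS10, 0.901 for DDX41, 0.757 for ENO1, 0.540 for AGPAT1 and 0.893 for LASP1. RGS10, a regulator of G-protein signalling, changed by -0.35 at 3 h relative to 0 h (adjusted p = 0.0388) and by 0.45 at 6 h relative to 3 h (0.0432). LASP1, an actin-binding protein, changed by -0.41 and 0.55 in the same comparisons (adjusted p = 0.0215 and 0.0207). DDX41, a helicase, changed by -0.31 and 0.50 (adjusted p = 0.0654 and 0.0312). The 3 h changes of RGS10 and LASP1 with equal array medians were -0.04 and -0.10 and not called, and the 6 h rise of RGS10 lost its call (0.38, adjusted p = 0.0606). ENO1 and AGPAT1 changed by less than INSIG1 at both steps and were not called. Among the members, r with that INSIG1 probe set was 0.935 for 201626_at and 0.735 for 201625_s_at, 0.489 and 0.411 for the SCD probe sets 200832_s_at and 200831_s_at, 0.287 for SQLE and -0.05 for ACAT2.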

How the data were processed

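Total RNA of 10 MOLT-4 samples was measured on 10 arrays, 2 at each of 5 times, grouped by the treatment time in the labels. The authors deposited 1 score per probe set, made with GCRMA (background correction by probe sequence, normalization and summary of probes), per the submitters' processing notes; the version, the scale and any later step are not given in the sources used here. The square root of the deposited score was read as log2, a reading of the data and not a statement of the authors.

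Symbols in the platform annotation were brought up to date by gene identifier against RefSeq (GRCh38.p14), and only probe sets with a single symbol name a gene (19071 had 1, 1043 several and 2169 none). After 68 control probe sets were set aside, the filter (at least 2 of 10 arrays at log2 5, a score of 25) kept 4276 of 22215 probe sets (19.2%).

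Levels were compared with lmFit and eBayes of limma 3.58.1 (R 4.3.3), with all 10 arrays in 1 fit by time (5 residual and 3.06 prior degrees of freedom), with Benjamini-Hochberg adjustment within a comparison over all tested probe sets. All p-values are two-sided and errors are SEs of the fit or SDs over 2 arrays. The genes named were all members, up to 6 called genes of each pathway list by size of change, the regulators of INSIG1, and the 5 genes most like INSIG1; list genes without a call are named after their values were seen. The members and lists were chosen with earlier results of these data known. Alternatives changed the scale, the normalization, the filter, a floor, a replicate block, spike-in or 18S levels as covariates and each single array. Data were simulated for 4276 probe sets with the mean 0 h levels on every array and independent normal noise. Changes in both directions were added at 6 h. For 6 h against 0 h the fit called 85 of 100 probe sets changed by 1 on the log2 scale and 97 of 100 changed by 1.5, with 8 false calls. The simulation held no array shifts, so these counts do not cover the shifts of the real arrays.

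Replicate arrays correlated at 0.991 to 0.994.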

Additional observations from a re-analysis of the deposited data

Results flagged for a closer look

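Changes against 0 h that differed between later times, by the fit's own contrast of these times, are listed here. INSIG1 201627_s_at stood 0.65 lower at 3 h than at 0.5 h (difference -0.65, adjusted p = 0.0197) and 0.57 lower at 3 h than at 1 h (-0.57, adjusted p = 0.0355), and 0.95 higher at 6 h than at 3 h (adjusted p = 0.00327). INSIG1 201626_at differed by -1.14 between 3 h and 0.5 h (adjusted p = 0.0458) and by 1.62 between 6 h and 3 h (adjusted p = 0.0115). SCD 200832_s_at differed by -1.43 between 3 h and 0.5 h (adjusted p = 0.0106). The groups of 2 arrays are too small for a test of single outlying arrays.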

How the results depend on the processing

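Each result was recomputed with another scale, normalization, filter, floor, covariate or replicate block, and without each single array. Of 1134 recomputed changes of the members, alone or relative to INSIG1, 998 kept their side of the threshold, 111 lost the call, 24 gained one and 1 turned. A change of sign counted as a turn only where the change was called before or after. The 998 include changes that were uncalled before and after, so their number does not measure how steady the called changes were. Some of those uncalled changes switched sign, such as SCD 200831_s_at at 3 h (-0.19, and 0.13 with equal array medians). The one that turned was SQLE minus INSIG1 at 3 h with the 18S level as a covariate, at 0.15 (adjusted p = 0.799). Members called against 0 h numbered 0, 2, 5 and 3 over the later times in order, 2 at 3 h against 1 h, 3 at 6 h against 3 h and 6 in the F test, and enzymes called as differing from INSIG1 1, 2, 2 and 4 at the later times in order. Log2 of the deposited values gave 1 member at 1 h, and untransformed values 1 enzyme at 3 h. Equal array medians gave 1 member at 0.5 h, and quantile normalization 2 at 0.5 h and 3 at 3 h. Without a filter, with all 17 probe sets in the fit, 0 members were called at 1 h and 2 at 3 h. For 3 h against 1 h 0 were called, and 3 in the F test. In that fit 5, 4, 10 and 13 of 14 enzyme probe sets differed from INSIG1 at the later times in order. Of these 14, 10 lay under the filter. A flat dim probe set differs from INSIG1 wherever INSIG1 moves, so those counts are no result about the enzymes. A filter at log2 7 left 1 member called at 1 h and 0, 1, 1 and 2 enzymes. A floor at log2 5 gave 1 member at 0.5 h, 5 at 6 h and 1 enzyme at 3 h. With the spike-in level as a covariate 1, 0 and 0 members were called at 1 h, 3 h and 6 h, 0 for 3 h against 1 h and 3 in the F test, and 0, 2, 0 and 2 enzymes. With the 18S level 0 members were called at 1 h, 3 h, 6 h and 3 h against 1 h, and 0 enzymes at every time; 4 members were called at 6 h against 3 h and 5 in the F test. Of all 4276 tested probe sets, 0 were called at 3 h against 0 h with either covariate. The causes were not tested. Same-numbered arrays did not deviate together (correlations of deviations from -0.231 to 0.147 over 10 pairs), so the numbers were not taken as pairs; with the replicate block 2, 5 and 4 members were called at 1 h, 3 h and 6 h and 1, 2, 2 and 4 enzymes differed at the later times in order, all within 1.5 times of the counts without it. Without single arrays, where the lone array of a time is assumed to vary like the others, members called ranged over 0 to 2 at 1 h, 1 (without the first 0 h array) to 5 at 3 h, 1 to 3 at 6 h, 0 to 2 for 3 h against 1 h, 2 to 4 for 6 h against 3 h and 4 to 6 in the F test, and enzymes over 0 to 1, 1 to 2, 0 to 2 and 3 to 4. The rise of INSIG1 201627_s_at at 6 h against 3 h was called in every alternative. The alternatives for pathway genes, list counts and correlations were chosen after seeing the data. Limits are the 2 arrays per time, an unstated scale, and array shifts that move with time. A further limit is that all probe sets of HMGCS1, IDI1 and FASN lay under the filter level on every array.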
